A study of Mus musculus with 6 samples.

Results

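ATP-binding cassette (ABC) transporter genes were followed in mouse erythroid cells after knockdown of the chromatin remodeller Mi2β. The members were all array probes, other than control probes, whose gene name is Abc, a letter from a to g and then a digit. They came to 50 genes with 73 probes, out of 34964 feature names on the array, and the brightest probe over the 6 arrays stood for its gene. The Mi2β siRNA group had 3 arrays and the control group, given a non-targeting siRNA, had 3. All 6 samples were of the line G1E-ER-GATA-1, mouse erythroid precursors without endogenous GATA-1 in which a fusion of GATA-1 with the hormone-binding part of the oestrogen receptor becomes active when oestradiol is added. Each sample was nucleofected with its siRNA at 0 h and again at 24 h, received β-estradiol at 24 h and was harvested at 48 h, so that both groups had 24 h of active GATA-1. The samples come from 1 cell line, and no arrays without oestradiol were analysed here. Whether the replicates of a group were separate cultures is not stated in the labels, and the p-values then reflect array-to-array spread that may be technical.

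ABC transporters bind ATP at a pair of cytoplasmic domains and use its hydrolysis to move lipids, haem intermediates, peptides, conjugated metabolites or drugs across membranes. Subfamily A mostly carries lipids. Subfamily B holds the multidrug exporters, several carriers of the mitochondrial membranes and a bile salt pump. Subfamily C holds the exporters of conjugated and anionic compounds and the sulphonylurea receptors, subfamily D carries fatty acids into peroxisomes, and subfamily G carries sterols, porphyrins and drugs. Members of subfamilies E and F have the ATP-binding domains but no membrane-spanning part, and act on ribosomes and translation. In maturing red cells the family is known for mitochondrial carriers that serve haem and iron-sulphur cluster synthesis.

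Probe signals are given on the log2 scale relative to the 75th percentile of the same array, so 0 is the signal of a probe at that percentile, and a log2 change is the mean of the Mi2β siRNA arrays minus the mean of the control arrays. "Rose" and "fell" are used of genes with an adjusted p under 0.05 by limma, adjusted over all 22133 genes tested. Chd4, which encodes Mi2β and was the siRNA target, had values of 4.62, 4.60 and 4.54 on the Mi2β siRNA arrays, against 5.93, 6.00 and 5.75 on the control arrays. Every knockdown array was below every control array, and Chd4 fell by 1.31 on the log2 scale (SE 0.10, adjusted p = 0.00161, limma), which is 2.48-fold lower. The shares of all probes that the scanner software called well above background were 61.2%, 74.0% and 48.5% on Mi2β siRNA replicates 1 to 3, against 56.4%, 53.0% and 54.5% on control replicates 1 to 3. Thus the arrays with the most and the fewest detected probes were both knockdown arrays.

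The probes of the 3 members that changed, and both probes of Abcc8, are shown by their first 30 of 60 bases, 5′ to 3′. In Abcc6 and Abcc8 the 2 neighbouring probes gave different signals. Coordinates are mm9, and all 6 probes match the minus strand. Which exon or untranslated region each lies in is not given, because an mm9 genome was not used. The 2 probes of Abcc6 lie 48 bases apart, at chr7:53231864-53231923 and chr7:53231756-53231815. The 2 probes of Abcc8 overlap by 47 bases, at chr7:53359921-53359980 and chr7:53359908-53359967, and capitals mark the 13 bases that the first has and the second lacks. The Abcc4 probe lies at chr14:118882104-118882163 and the Abcb10 probe at chr8:126476407-126476466.
Abcc6, bright probe: gtgtgcacatattccctaactccttatttt
Abcc6, dim probe: aagggtgacaccttgtccaactctagagca
Abcc8, bright probe: AGCGTGCCGCCCCgcacctcacttgcttgc
Abcc8, dim probe: gcacctcacttgcttgcctagtgtttcgta
Abcc4: gccagtaaatgatgtagattcgtcctttat
Abcb10: cagatcagactggtgagaaagcattatgaa

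About as many ABC genes were detected in these cells as of genes in general. Of the 50 members, 30 had a signal well above background on 3 or more arrays and were tested, which is 60%, against 64.0% of all named genes on the array. Of these 30, 25 were well above background on all 6 arrays. Of the 20 that were not tested, 12 were above background on no array with any probe, 7 on 1 array and Abca14 on 2. The 7 members seen on 1 array were not spread over the arrays: 6 of them (Abca12, Abca5, Abcb5, Abcc12, Abcc9 and Abcg8) were above background on Mi2β siRNA replicate 2 alone, the array with the most detected probes. The number of members well above background was 31, 37 and 26 on Mi2β siRNA replicates 1 to 3, against 27, 28 and 30 on control replicates 1 to 3, so the groups overlapped. No member was well above background on all arrays of one group and on none of the other.

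**Figure D1:**
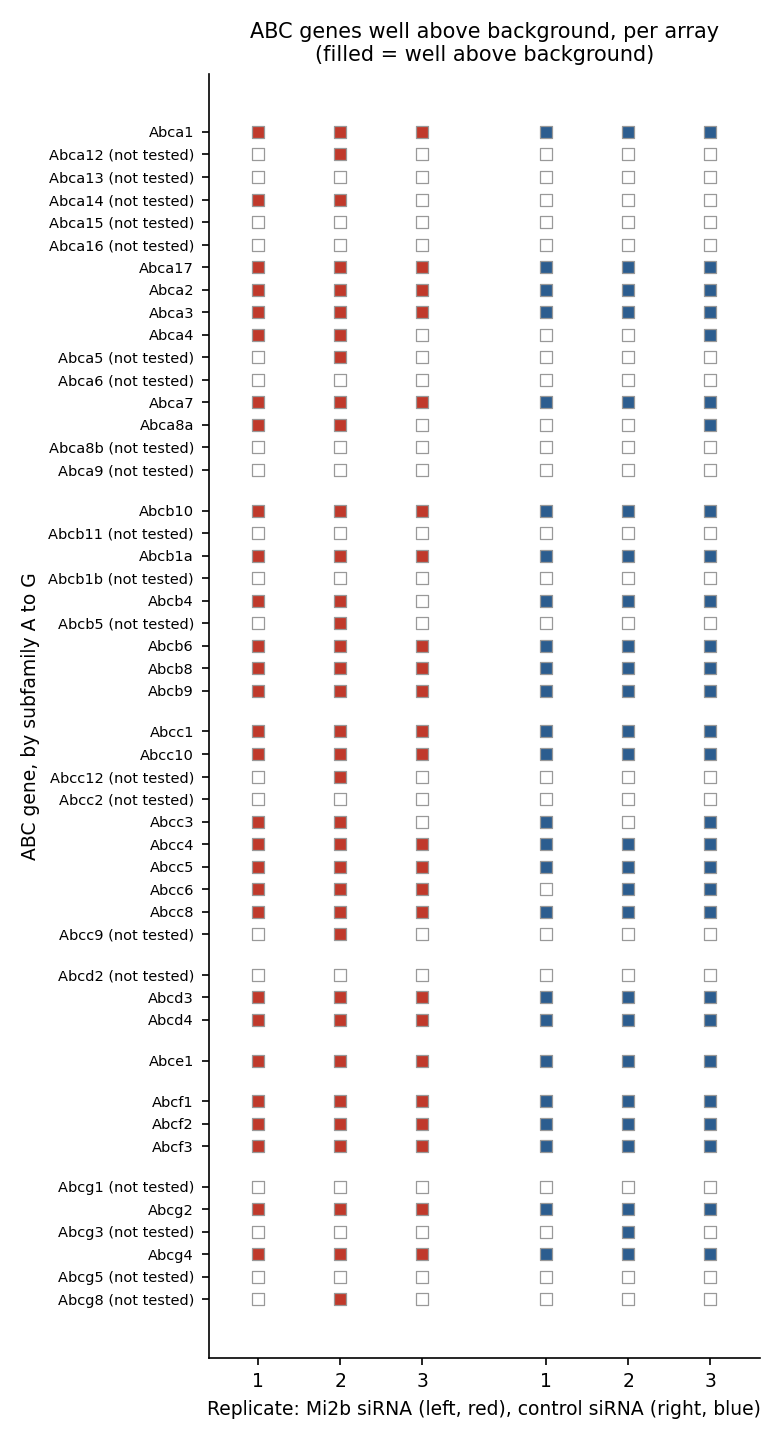
Detection of 48 of the 50 ABC genes on the 3 Mi2b siRNA arrays (left, red) and the 3 control siRNA arrays (right, blue), by the brightest probe. A filled square is a probe well above background and an open square one that is not. The 23 genes with a full row run through every subfamily, and Mi2b siRNA replicate 2 has the most filled squares, at 35.

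The subfamilies differed in how many of their members were detected. All 3 members of subfamily F and the sole member of subfamily E were well above background on all 6 arrays. Subfamily D had 3 of 4 members on all arrays and lacked Abcd2, a peroxisomal fatty acid carrier. Subfamily B had 7 of 10 members tested and subfamily C also 7 of 10. Those not tested included the bile salt exporter Abcb11 and the multidrug exporter Abcb1b, both above background on no array, and Abcc2, an exporter of conjugates into bile, also on none. Subfamily A had 7 of 16 members tested and subfamily G had 2 of 6. The sterol carriers Abcg1 and Abcg5 were above background on no array, and Abcg8, which pairs with Abcg5, was above background only on Mi2β siRNA replicate 2.

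Knockdown of Mi2β changed few ABC genes. Abcc6 rose, Abcc4 and Abcb10 fell, and the other 27 tested members did not pass. That is 3 of 30, or 10%, beside 9.56% of all genes tested, so the count is near the background. By direction, 1 of 30 rose beside 4.99% of all genes, and 2 of 30 fell beside 4.56%. At an unadjusted p under 0.05, 3 members were higher and 2 lower, beside 23.9% of all genes in either direction. In 8 members the groups did not overlap, beside 31.1% of all genes: Abcb8, Abcc6, Abcd3, Abcf2 and Abcg4 were higher on every knockdown array, beside 12.7%, and Abcb10, Abcb9 and Abcc4 lower on every knockdown array, beside 18.4%. The median log2 change was 0.12 over the 30 tested members and −0.03 over all genes tested. The mean was higher in the knockdown for 18 members and lower for 12, and for 45.5% of all genes tested it was higher. A member that passed the detection filter in 1 group only would have had to differ, and each of the 30 was detected in both groups.

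**Figure D2:**
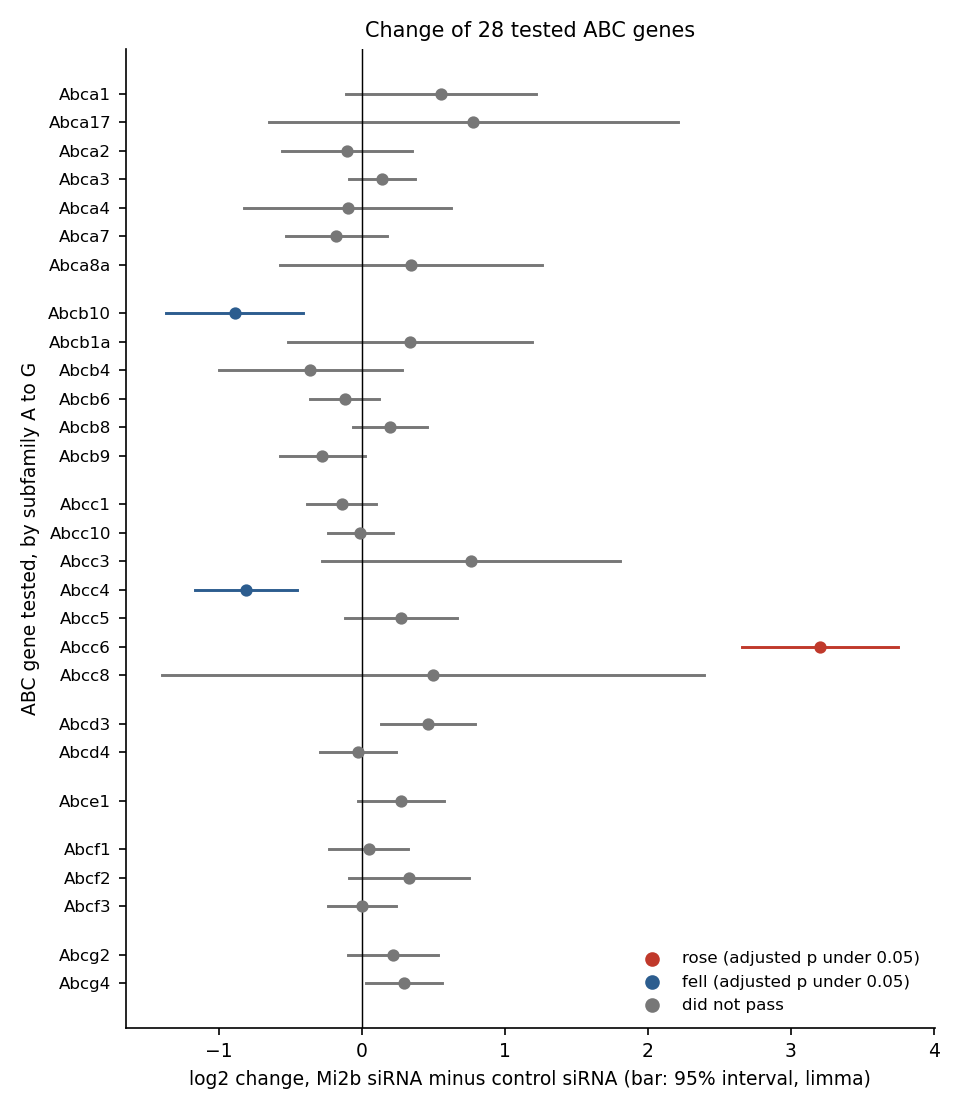
Log2 change of 28 of the 30 tested ABC genes, Mi2b siRNA minus control siRNA, by subfamily from A to G. Points are changes from limma with 3 arrays per group, bars their 95% intervals. Abcc6 stands at 3.21, and Abcb10 and Abcc4 lie below 0 with intervals that do not reach it.

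In subfamily C, Abcc6 had the largest change of any member. The gene encodes an exporter best known from liver and kidney, whose loss in people causes pseudoxanthoma elasticum, an ectopic mineralisation disorder. Its bright probe read −1.37, −1.44 and −0.94 on the Mi2β siRNA arrays, against −4.86, −4.29 and −4.23 on the control arrays. The groups were far apart, with means of −1.25 ± 0.27 (SD, n = 3) under Mi2β siRNA and −4.46 ± 0.35 (SD, n = 3) under control siRNA. Abcc6 rose by 3.21 on the log2 scale (SE 0.22, 95% interval 2.66 to 3.75, adjusted p = 0.00113, limma), which is 9.23-fold. It was 1 of 84 genes, 0.380% of those tested, that rose at least 8-fold. The control signal was low: 12.8, 18.4 and 20.9 intensity units on control replicates 1 to 3, of which replicate 1 was not well above background, against 172, 145 and 211 units on the Mi2β siRNA arrays. The size of the change therefore depends on how low signals are treated. With normexp background correction, which here added an offset of 50 units to each signal, the change was 1.39. Such an offset narrows ratios between low signals, and its part in the smaller change was not tested separately. Over 19 alternatives the adjusted p ran from 1.48e-12 to 0.0222 (limma), all past the threshold. Blocking on the row of the slide gave 3.21 (adjusted p = 0.00191, limma), and row 1, which holds replicates 1 and 2 of both groups, gave 3.17 alone (adjusted p = 0.0222, limma). Row 2 holds 1 array of each group, too few for a value of its own. The second Abcc6 probe, 48 bases away, was well above background only on Mi2β siRNA replicate 2. It read −5.00, −4.09 and −6.00 on the Mi2β siRNA arrays, against −6.79, −6.73 and −5.00 on the control arrays. On the second probe the groups overlapped, so the rise of Abcc6 rests on 1 probe.

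Abcc4 encodes MRP4, an exporter of cyclic nucleotides, prostaglandins and other organic anions. It read 2.72, 2.34 and 2.46 on the Mi2β siRNA arrays, against 3.23, 3.5 and 3.23 on the control arrays. Every knockdown array lay below every control array. Abcc4 fell by 0.81 on the log2 scale (SE 0.14, 95% interval −1.17 to −0.46, adjusted p = 0.0229, limma), which is 1.76-fold lower. The direction was the same in all 20 alternatives, and the adjusted p ran from 0.00104 to 0.117, over the threshold in 9 of them. Leaving out 1 array ended the call for 5 of the 6 arrays, with an adjusted p of 0.0699 without Mi2β siRNA replicate 2, 0.0676 without Mi2β siRNA replicate 3, 0.0714 without control replicate 1, 0.0721 without control replicate 2 and 0.0537 without control replicate 3 (limma). Blocked on slide row, the adjusted p was 0.0421, and within row 1 the change was −0.83 (adjusted p = 0.117, limma).

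The other 5 tested members of subfamily C did not pass. Abcc1, an exporter of glutathione conjugates, changed by −0.14 (95% interval −0.38 to 0.10), and Abcc10, a drug exporter, by −0.011 (−0.24 to 0.22). Both intervals lie well inside a 2-fold change, which is 1 on the log2 scale. Abcc5, which exports cyclic nucleotides, changed by 0.27 (−0.12 to 0.66). For the conjugate exporter Abcc3 the interval was wide, −0.28 to 1.81 around 0.77, and its probe was well above background on only 2 arrays of each group. The remaining member, Abcc8, is described with the single arrays that stood apart.

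In subfamily B, the mitochondrial carrier Abcb10 fell. Abcb10 lies in the inner mitochondrial membrane, is known to be induced by GATA-1 in erythroid cells, and stabilises the iron importer mitoferrin 1 (Slc25a37). It read 6.13, 6.00 and 6.21 on the Mi2β siRNA arrays, against 7.21, 7.22 and 6.59 on the control arrays. The groups did not overlap, with control replicate 3 the control array nearest to the knockdown. Abcb10 fell by 0.89 on the log2 scale (SE 0.19, 95% interval −1.37 to −0.41, adjusted p = 0.0437, limma), which is 1.85-fold lower. The direction was the same in all 20 alternatives, and the adjusted p ran from 0.0031 to 0.15, over the threshold in 10 of them. Leaving out 1 array ended the call for 5 of the 6 arrays: the adjusted p was 0.15 without Mi2β siRNA replicate 1, 0.122 without Mi2β siRNA replicate 2, 0.0858 without Mi2β siRNA replicate 3, 0.136 without control replicate 1 and 0.13 without control replicate 2, against 0.0116 without control replicate 3 (limma). Blocked on slide row, the adjusted p was 0.0558, and within row 1 the change was −1.15 (adjusted p = 0.0354, limma). Taking the 75th percentile over probes in place of spots, an alternative chosen after seeing the data, gave an adjusted p of 0.0501.

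**Figure D3:**
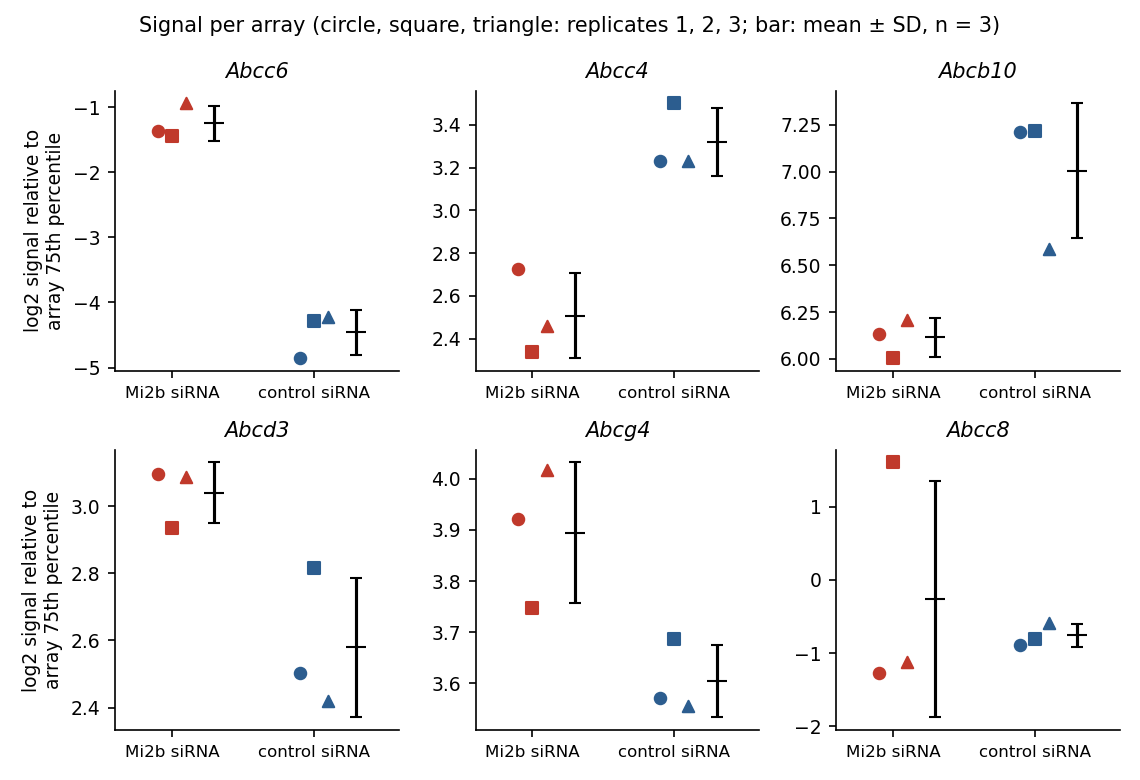
Log2 signal relative to the array's 75th percentile for 6 ABC genes, with Mi2b siRNA arrays left in red and control siRNA arrays right in blue. Circles, squares and triangles are replicates 1, 2 and 3, bars the mean ± SD (n = 3), and each panel has its own scale. The groups are apart in every panel but that of Abcc8, where Mi2b siRNA replicate 2 lies at 1.6 and the other 5 arrays between −1.27 and −0.59.

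The mitochondrial members Abcb6 and Abcb8 did not pass, and their intervals were narrow. Abcb6, which transports porphyrins, changed by −0.12 (95% interval −0.37 to 0.12). Abcb8, which serves mitochondrial iron export, changed by 0.20 (−0.06 to 0.46), or by −0.040 with arrays scaled to their median. For both a 2-fold change lies outside the interval. Abcb9, a lysosomal peptide transporter, was lower on every knockdown array but did not pass, at −0.28 (−0.58 to 0.02). The multidrug exporter Abcb1a changed by 0.33 (−0.52 to 1.19) and Abcb4, the phosphatidylcholine carrier of bile, by −0.36 (−1.0 to 0.28). The Abcb4 change was −0.14 without Mi2β siRNA replicate 3 and −0.57 without Mi2β siRNA replicate 2. Abcb1a and Abcb1b are close copies. The Abcb1a probe was well above background on all 6 arrays and the Abcb1b probe on none. Whether the Abcb1a probe also binds Abcb1b RNA was not tested.

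**Figure D4:**
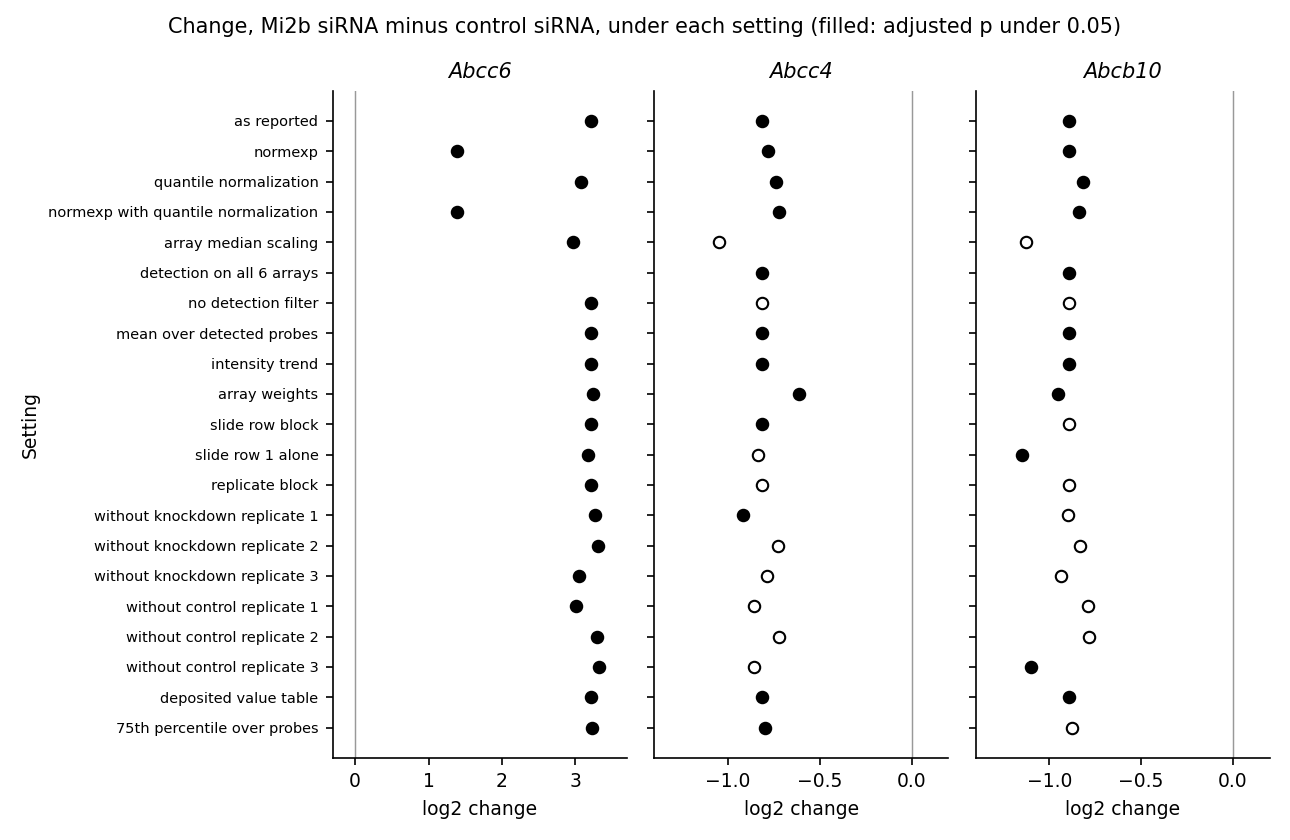
Log2 change, Mi2b siRNA minus control siRNA, of the 3 ABC genes that changed, under each processing setting. Filled points have an adjusted p under 0.05 and open points do not. Abcc6 is filled wherever it was tested and drops to 1.39 with both normexp settings, while Abcc4 and Abcb10 keep their direction and are open in 9 and 10 of 20 alternatives.

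In subfamily A none of the 7 tested members rose or fell by limma, and none reached an unadjusted p under 0.05. The change with the greatest size among those well above background on all arrays was that of Abca17, a mouse lipid transporter gene, which read −2.06, −1.78 and −1.89 on the Mi2β siRNA arrays, against −1.63, −4.01 and −2.42 on the control arrays. Control replicate 2 was far below the rest, and the change of 0.78 (SE 0.58, adjusted p = 0.496, limma) was 0.12 without that array. Abca1, which loads cholesterol and phospholipid onto apolipoprotein A1, averaged −0.83 ± 0.48 under Mi2β siRNA and −1.38 ± 0.26 under control siRNA (SD, n = 3 each), and its change of 0.55 had an interval of −0.11 to 1.21. Without Mi2β siRNA replicate 3 it was 0.32, and over all arrays left out in turn it ran up to 0.80. The well-detected members Abca3, Abca7 and Abca2 had narrow intervals. Abca3, the surfactant lipid carrier of lung, changed by 0.14 (−0.09 to 0.37), Abca7, a phospholipid transporter linked to phagocytosis, by −0.18 (−0.53 to 0.17), and Abca2, a lipid transporter of late endosomes and lysosomes, by −0.11 (−0.56 to 0.35). The Abca3 change was −0.10 with arrays scaled to their median. Abca4, the retinoid flippase of photoreceptors, and Abca8a were well above background on 3 of 6 arrays, at −0.10 (−0.82 to 0.62) and 0.34 (−0.57 to 1.26).

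In subfamily D none of the 3 tested members rose or fell by limma, and 1, Abcd3, had an unadjusted p under 0.05. Abcd3 is the main protein of the peroxisomal membrane and carries branched and long fatty acids. It read 3.1, 2.93 and 3.09 on the Mi2β siRNA arrays, against 2.50, 2.81 and 2.42 on the control arrays. All knockdown arrays were above all control arrays. The change of 0.46 (SE 0.13, 95% interval 0.13 to 0.79) had an adjusted p = 0.0964, the lowest of the 27 members that did not pass (limma). In 5 of 20 alternatives Abcd3 did pass, with changes of 0.46 to 0.54, and over all 20 the adjusted p ran from 0.00571 to 0.804. Abcd4, which serves lysosomal cobalamin export, changed by −0.03 (−0.29 to 0.23).

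In subfamilies E and F, the members without a membrane part, none of the 4 passed by limma, and none had an unadjusted p under 0.05. Abce1, the ATPase that splits ribosomes after termination, read 5.25, 5.2 and 5.01 on the Mi2β siRNA arrays, against 4.76, 5.04 and 4.83 on the control arrays. The groups overlapped at knockdown replicate 3 and control replicate 2, and the change was 0.27 (SE 0.12, adjusted p = 0.249, limma). Abce1 passed in 1 of 20 alternatives, array weights, and the adjusted p ran from 0.0431 to 0.968. Abcf2 read 3.69, 3.46 and 3.47 on the Mi2β siRNA arrays, against 3.34, 3.41 and 2.87 on the control arrays. Its groups did not overlap, but the change of 0.33 (SE 0.17, 95% interval −0.09 to 0.75) had an adjusted p = 0.311 (limma), and it was 0.16 without control replicate 3. Abcf1, which takes part in translation initiation, changed by 0.05 (95% interval −0.23 to 0.32) and Abcf3 by 0.0003 (−0.24 to 0.24). With arrays scaled to their median these 2 changes were −0.19 and −0.24.

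In subfamily G neither tested member passed by limma, and 1, Abcg4, had an unadjusted p under 0.05. Abcg4, which exports cholesterol to lipoproteins, read 3.92, 3.75 and 4.02 on the Mi2β siRNA arrays, against 3.57, 3.69 and 3.56 on the control arrays. The knockdown arrays were all higher, by little, and the change was 0.29 (SE 0.11, 95% interval 0.02 to 0.56, adjusted p = 0.176, limma). It passed in 3 of 20 alternatives, and the adjusted p ran from 0.0171 to 0.952. Abcg2, which exports porphyrins and many drugs and is a marker of haematopoietic stem cells, changed by 0.21 (−0.10 to 0.53), or by −0.02 with arrays scaled to their median.

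Across the 27 tested members that did not pass, the changes ran from −0.36 for Abcb4 to 0.78 for Abca17, both of which moved by over 1.5 times when 1 array was left out. In 24 of them the change was under 0.5 in either direction. In 20 of the 27 the whole 95% interval lay between −1 and 1, so that for these a 2-fold change in either direction lies outside the interval. For the other 7 the arrays do not settle whether the level moved 2-fold.

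Single arrays set the values of 3 members, which were picked out after their values were seen. Abcc8, the sulphonylurea receptor that forms potassium channels with Kcnj11, had signals of 185, 1196 and 186 intensity units on the Mi2β siRNA arrays, against 200, 206 and 261 units on the control arrays. Mi2β siRNA replicate 2 was the only array that stood apart. The log2 change of Abcc8 was 0.50 (SE 0.77, adjusted p = 0.751, limma) with all arrays and −0.43 without that array. The second Abcc8 probe, which shares 47 of its 60 bases, was well above background on no array and did not stand out on Mi2β siRNA replicate 2. Abcg3 was above background on control replicate 2 alone, at 75.6 units, against 2.67, 2.66 and 4.34 units on the Mi2β siRNA arrays and 2.90 and 5.25 units on the other control arrays. Abca17, given above, was low on control replicate 2 alone.

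For 6 members more than 1 probe was tested, 15 probes in all, and none of the 15 passed when all probes were fitted. In that fit Abcc6 (adjusted p = 0.00137) and Abcc4 (adjusted p = 0.0272) still passed, and Abcb10 did not (adjusted p = 0.0502), by limma. In 2 of the 6, Abca2 and Abcb8, the changes of all probes had the same sign, and in the other 4 the signs differed. The Abcb8 probes changed by 0.20 and 0.25. The 3 Abcg4 probes changed by 0.29, 0.19 and −0.22, the last one lying away from the others along the gene. The Abcf1 probes changed by 0.05 and −0.07, and the 4 Abcc5 probes by between −0.13 and 0.27. Differences of this size between probes of 1 gene are of the same order as most changes reported here for members that did not pass.

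Genes that work with ABC transporters were read from the same fit, with 1 list of 3 superfamily members that have no Abc symbol. All of these are counted together as partner genes. The 8 lists held 78 tested genes, of which 3 rose and 7 fell, beside 4.99% and 4.56% of all genes. These calls depended on single arrays and on scaling: leaving out each array in turn left 1 to 3 rises and 2 to 4 falls, and array median scaling left 0 rises and 1 fall. The median changes of the lists, given with each, stand beside −0.03 over all genes. Among 14 partners in mitochondrial haem and iron-sulphur cluster synthesis, where Abcb6, Abcb8 and Abcb10 act, 1 rose and 2 fell, with a median change of −0.30. Alas2, the erythroid form of the first enzyme of haem synthesis, read 6.70, 6.70 and 7.0 on the Mi2β siRNA arrays, against 5.71, 5.79 and 5.72 on the control arrays, and rose by 1.06 (SE 0.12, adjusted p = 0.00467, limma). Its housekeeping counterpart Alas1 fell by 0.81 (SE 0.10, adjusted p = 0.0073, limma). The mitochondrial glycine carrier Slc25a38, which feeds that enzyme, fell by 0.50 (SE 0.10, adjusted p = 0.03, limma). So the enzyme genes of that step moved in opposite directions, both beyond the spread of the arrays. Slc25a37, the mitoferrin that Abcb10 stabilises, changed by −0.44 (adjusted p = 0.121, limma) and ferrochelatase (Fech) by −0.45 (adjusted p = 0.0889, limma), neither of which passed.

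**Figure D5:**
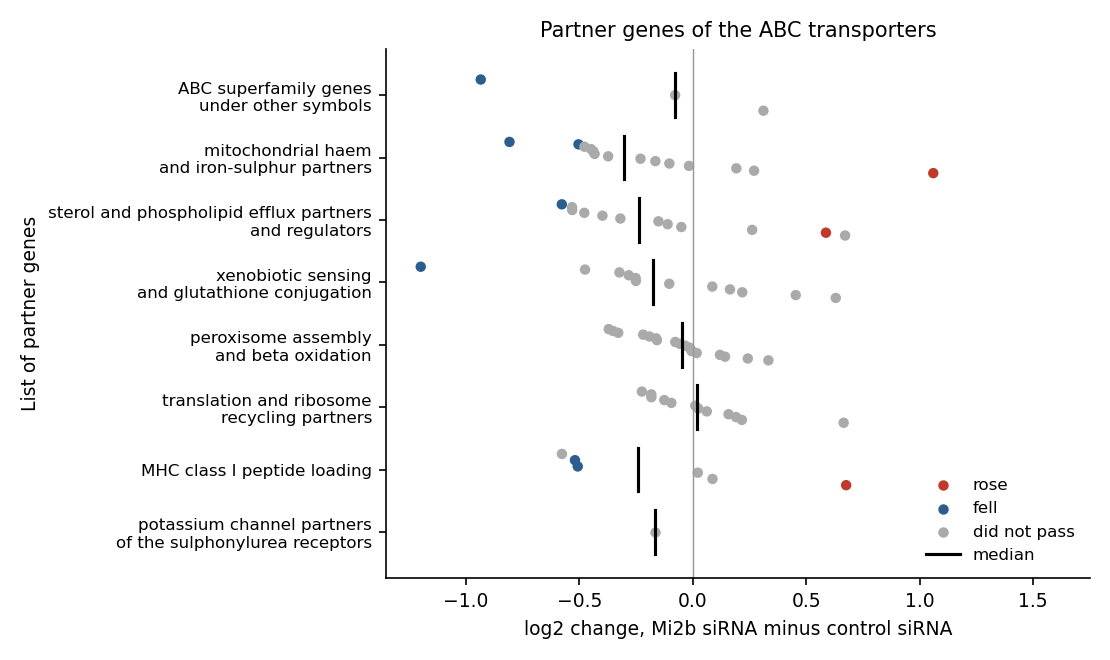
Log2 change, Mi2b siRNA minus control siRNA, of the 78 tested genes of the partner lists, by list. Superfamily members without an Abc symbol are among them. Red points rose, blue points fell, grey points did not pass, and black bars are list medians. The haem list holds both Alas2 at 1.06 and Alas1 at −0.81, and the peroxisome and translation lists hold no coloured point.

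In the sterol and phospholipid list, 12 of 15 genes were tested, 1 rose and 1 fell (median −0.24). Apoe, an apolipoprotein that takes up exported lipid, rose by 0.59 (SE 0.09, adjusted p = 0.0165, limma), and Npc1, which moves cholesterol out of lysosomes, fell by 0.58 (SE 0.11, adjusted p = 0.033, limma). In the list of xenobiotic sensing and glutathione conjugation, whose products subfamily C exports, 12 of 15 were tested, none rose and 1 fell (median −0.18). That gene was Gss, glutathione synthetase, which read 0.76, 0.64 and 0.84 on the Mi2β siRNA arrays, against 1.89, 2.10 and 1.85 on the control arrays, and fell by 1.20 (SE 0.11, adjusted p = 0.00281, limma). The 3 members of the superfamily without an Abc symbol were all tested. Tap1, a subunit of the peptide transporter that loads MHC class I, read −4.32, −4.23 and −4.73 on the Mi2β siRNA arrays, against −3.37, −3.48 and −3.63 on the control arrays. It fell by 0.93 (SE 0.16, adjusted p = 0.0213, limma) and its signal was well above background on all control arrays but on only 2 of the 3 knockdown arrays. Its partner Tap2 changed by −0.08 (adjusted p = 0.926) and Cftr, the chloride channel, by 0.31 (adjusted p = 0.707), by limma.

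Around Tap1, 6 of 7 genes of MHC class I peptide loading were tested, 1 rose and 2 fell (median −0.24). The chaperone Calr rose by 0.68 (SE 0.12, adjusted p = 0.0203, limma). Tapbp, which bridges the peptide transporter to MHC class I, fell by 0.51 (adjusted p = 0.029, limma), and the immunoproteasome subunit Psmb9 fell by 0.52 (adjusted p = 0.025, limma). None of 18 genes of peroxisome assembly and beta oxidation rose or fell (median −0.05), and none of 12 partners in translation and ribosome recycling did (median 0.02), by limma. Kcnj11, the channel partner of Abcc8, changed by −0.17 (adjusted p = 0.81, limma), and Kcnj8, the partner of Abcc9, was above background on no array. These lists were chosen with earlier results of these data known.

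The cells carried the markers of their labelled type. All 11 erythroid markers were tested, of which 3 rose (Alas2, Epb42 and the β-globin gene listed as Hbb-b1, named Hbb-bt through RefSeq) and 2 fell (Slc4a1 and Ahsp). Megakaryocyte markers moved with the knockdown: of 5 tested out of 7, 3 fell, with Pf4 at −1.62, Gp9 at −2.18 and Gp1ba at −0.63. Their summed linear level, in units of the array's 75th percentile, was 14.2 to 18.5 on the Mi2β siRNA arrays, against 38.6 to 44.3 on the control arrays, and the defining marker Ppbp was above background on no array. Among mast cell markers 1 of 5 tested, Hdc, rose by 2.05, and the summed level was 10.3 to 11.7 on the Mi2β siRNA arrays, against 6.71 to 8.44 on the control arrays, with Mcpt8 and Fcer1a above background on no array. Kit had the highest signal of the 5 on every array, and so the largest part of that sum. It did not pass, at 0.40 (adjusted p = 0.117, limma). Among monocyte and macrophage markers 1 of 4 tested, Cd68, rose by 0.53, Csf1r was lower on every knockdown array at −0.33 (adjusted p = 0.0744, limma), Adgre1 was at −0.15 and Itgam at 0.14. Their median change was −0.0026, and the summed level was 21.0 to 22.4 on the Mi2β siRNA arrays, against 16.9 to 21.7 on the control arrays, with Mrc1 and Lyz2 above background on no array. None of the tested neutrophil, B cell, T cell, endothelial or fibroblast markers rose or fell by limma. In a bulk sample, fewer cells of a type and less RNA per cell cannot be told apart, and the part of these marker differences in the levels of Abcc6, Abcc4 and Abcb10 was not tested.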

How the data were processed

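The deposited scanner values are Cy3 spot intensities on a linear scale, which the scanner software (Feature Extraction, version 10.7.3.1 in the deposited headers) had background-subtracted. Limma is also named in the submitters' processing notes. The authors' deposited value table held the same intensities, unscaled and not centred (column medians 25.9, 36.93 and 17.83 for Mi2β siRNA replicates 1 to 3, and 21.23, 16.95 and 20.92 for control replicates 1 to 3). Control spots and outlier-flagged spots were left out, each intensity was taken as log2 minus the array's 75th percentile over non-control spots, and spots of a probe were averaged. Probes well above background on at least 3 arrays were kept, with the brightest per gene. Names were updated through RefSeq accessions (27509 of 29150 matched); all 50 member names are RefSeq symbols. Limma 3.58.1 in R 4.3.3 compared the groups with no covariate, with Benjamini-Hochberg adjustment over 22133 genes and a threshold of 0.05. The script was tested on simulated data. Values per array are given for members that changed and, per subfamily, for the fully detected member with the greatest change; listed partner genes are named where they changed. Members, lists and the choice of spots behind the percentile were chosen with earlier results of these data known. All arrays shared 1 slide and 1 scan, and the slide row was tested as a batch. Knockdown arrays lay in slide columns 2 and 4 and control arrays in columns 1 and 3. The column therefore cannot be told apart from the siRNA group. The number of arrays limits the precision. No probe of a member was saturated. The values of 2 members are not reported here, though counts include them, except counts of single changes under the alternatives. Alternatives changed the background correction, scaling, filter, probe choice, variance model, weights, blocks and arrays. Normexp was run with an offset of 50 units.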

Additional observations from a re-analysis of the deposited data

How the results depend on the processing

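Of 555 changes of single ABC genes recomputed under 20 alternatives, 488 kept their direction and their side of the threshold, 19 lost a call (Abcc4 and Abcb10), 9 gained one (Abcd3, Abcg4 and Abce1) and 39 reversed, none of these past the threshold in the values reported; 22 members were called in no setting. The cause was not tested. As reported, 1 ABC gene rose and 2 fell. The number that rose was 2 with normexp or an intensity trend, 3 with quantile normalization alone or after normexp, 4 with array weights, and 0 with detection on all 6 arrays, where Abcc6 is not tested. The number that fell was 0 with array median scaling, with no detection filter and at a change of at least 1, and 1 with the slide row block, with slide row 1 alone and with the percentile over probes. Leaving out 1 array gave 0 to 1 falls and 1 rise each time.

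Over all genes, against 1105 rises and 1010 falls, normexp gave 1670 falls, normexp with quantile normalization 1845 rises and 1701 falls, array median scaling 478 and 312, no filter 661 and 332, an intensity trend 1788 falls, array weights 2180 and 2549, slide row 1 alone 494 and 226, and a change of at least 1 gave 560 and 198. Leaving out 1 array gave 557 to 898 rises and 256 to 681 falls. Over the partner genes, against 3 rises and 7 falls, normexp gave 12 falls, normexp with quantile normalization 5 rises and 13 falls, array median scaling 0 and 1, no filter 1 and 2, an intensity trend 15 falls, array weights 5 and 21, slide row 1 alone 1 and 1, a change of at least 1 gave 1 and 1, and leaving out 1 array 1 to 3 rises and 2 to 4 falls. Array median scaling moved the median change of all genes to −0.27, from −0.03 as reported.

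With the replicate number as a block, 1 ABC gene rose and 0 fell, 502 of all genes rose and 183 fell, and 1 partner gene rose and 1 fell. The deviations of same-numbered arrays from their group means correlated at 0.21, −0.32 and 0.13. Same-numbered arrays lay side by side on the slide. Whether same-numbered samples were prepared together is not stated in the labels, and so few correlations cannot decide it.

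Reversed log2 changes were Abca3 −0.097, Abcb8 −0.040, Abcf1 −0.19, Abcf3 −0.24 and Abcg2 −0.022 with array median scaling; Abca8a −0.045, Abcc10 0.0068, Abcd4 0.0094 and Abcf3 −0.0017 with normexp; Abca8a −0.079, Abcc10 0.076 and Abcd4 0.049 with quantile normalization; Abca8a −0.026, Abcc10 0.077 and Abcd4 0.075 with both; Abca4 0.11, Abcc8 −0.28 and Abcd4 0.080 with array weights; Abca4 0.38, Abcd4 0.010 and Abcf3 −0.059 within slide row 1; Abcf1 −0.011 with the mean over detected probes; and Abcc10 0.0035 with the percentile over probes. Leaving out 1 array gave Abca2 −0.26 to 0.058, Abca4 −0.28 to 0.15, Abcb1a −0.027 to 0.60, Abcc10 −0.057 to 0.021, Abcc8 −0.43 to 1.00, Abcd4 −0.078 to 0.033, Abcf1 −0.0024 to 0.13 and Abcf3 −0.047 to 0.065. Of the 30 tested members 5 were not well above background on every array, which limits their precision.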
